A study of Mus musculus with 3 samples.

Results

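Genes that repair broken DNA by homologous recombination and genes of the DNA damage checkpoint were examined in primary keratinocytes of RASSF9-/- mice. The list holds 32 genes chosen by symbol, and it and the comparison lists were drawn up with earlier results of these data known. For 30 of them the array used, an Affymetrix Mouse Genome 430 2.0 design that reads each transcript with groups of short oligonucleotides (probe sets), has at least 1 probe set annotated with that symbol alone, and the brightest probe set by mean log2 signal over the arrays stood for its gene. Rbbp8 and Xrcc2 were not analysed here. The whole table represents 18193 genes in the same way. Keratinocytes came from the skin of newborn ICR mice, 2 samples from RASSF9-/- mice and 1 from a wild-type (WT) mouse, with 1 array each. The RASSF9-/- line arose when an LMP1 transgene of Epstein-Barr virus inserted into the genome and removed a chromosomal segment, so homozygous cells carry that transgene in addition to the loss of RASSF9. The paper reported no detectable LMP1 transcript or protein in skin of the transgenic mice. Expression of LMP1 in the cultured cells was not examined here. Each sample was 1 culture plate kept in low-calcium serum-free medium with supplements. The sample labels give 48 h of culture for RASSF9-/- and 24 h for WT, whereas the methods give the same time for every sample. If the labels hold, genotype and culture time cannot be told apart.

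Homologous recombination restores a broken chromosome by copying the intact sister, and it works mainly in S and G2 phase, when a sister is present. ATM and ATR kinases sense broken or stalled DNA and signal through CHK2 and CHK1 to halt the cell cycle. BRCA1 and BRCA2 with their partners prepare the broken end to invade the sister, the Fanconi anaemia proteins open the way past DNA crosslinks, and BLM and MUS81 take joined chromosomes apart. Transcripts of many of these genes follow the cell cycle through E2F transcription factors, so cultures with more dividing cells generally hold more of them. In RNA from a whole culture, more dividing cells and more RNA per cell cannot be told apart.

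The deposited MAS5 signals are linear intensities in array units, already scaled so that every array has the same trimmed mean. Among 27 probe sets for bacterial sequences, used as a background measure, the top signal was 78.4, and signals below that level counted as background. That top came from RASSF9-/- array 1, while the top was 51.6 on RASSF9-/- array 2 and 36.1 on the WT array. Some signals counted as background therefore exceed the top of their own array, such as 48.7 for Palb2 and 38.6 for Fanci on the WT array. Rassf9 had signals of 59.6 and 120 on RASSF9-/- arrays 1 and 2, against 478 on the WT array, so array 2 was above background for the disrupted gene. All 8 keratinocyte markers were above background on every array, and 5 of them were lower than WT on both RASSF9-/- arrays. The list summed to 116413 and 141882 on RASSF9-/- arrays 1 and 2, against 148784 on the WT array. Krt14 and Krt5 had signals from 27760 to 38752 on all 3 arrays, whereas Trp63, a transcription factor of basal keratinocytes, had 1460 and 1543 on RASSF9-/- arrays 1 and 2, against 3239 on the WT array. All 7 melanocyte markers were above background on every array, with summed signals of 24999 and 35284 on RASSF9-/- arrays 1 and 2 and 29399 on the WT array. Of 7 fibroblast markers, 6 were above background on the WT array and the list summed to 1267 and 922 on RASSF9-/- arrays 1 and 2, against 1683 on the WT array. The leukocyte marker Ptprc and the endothelial marker Pecam1 were in the background on all 3 arrays, while Kdr and Csf1r were above it on all 3. The part of these cell types in the results was not tested. The signal ratio of 3' to 5' control probe sets lay between 0.832 and 0.939 for Gapdh and between 1.37 and 1.43 for beta-actin. The WT array and RASSF9-/- array 1 carry the same date in their labels and RASSF9-/- array 2 a later one, and 1 WT array leaves no estimate of the spread among WT cultures.

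Most recombination and checkpoint genes had a somewhat higher signal in RASSF9-/- keratinocytes than in WT keratinocytes, and none passed the test. Of the 30 genes measured, 20 were higher than WT on both RASSF9-/- arrays, 4 were lower on both and 6 went opposite ways. Among all 18193 genes, 33.4% were higher on both arrays and 31.8% lower on both. These counts share 1 WT array, so a low or high WT value moves both differences of a gene together. The median difference of the 30 genes was 0.43 on the log2 scale, with 0.45 on array 1 and 0.46 on array 2, beside -0.01 for all genes (0.08 and -0.06). On array 1, which shares its date with the WT array, 22 of the 30 were higher than WT, and on array 2 24 were. By the ratio of signals alone, without regard to background, 5 genes passed a limit of 2-fold higher on both arrays, beside 7.01% of all genes, and none passed it in the other direction. All 5 had a WT signal in the background, and of these Brip1 and Fancb were in the background on the RASSF9-/- arrays too, so their ratios do not measure a fold.

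Many of these transcripts are dim on the array. By their brightest probe sets, Brip1, Fancb, Rad51c, Fancm, Bard1 and Rad54b were in the background on all 3 arrays, so no fold is given for them. For Fancm another probe set was above background on RASSF9-/- array 2. Among the 24 genes whose brightest probe set was above background on at least 1 array, 17 were higher on both RASSF9-/- arrays, 1 was lower on both and 6 went opposite ways, where 33.7% and 32.1% of the 13065 genes of that kind were higher and lower on both. Of the same 24, the 3 genes Rad51ap1, Fanci and Palb2 were at least 2-fold higher on both, beside 4.62% of such genes. Of these 3, none was still 2-fold higher on both once background values had been raised to 78.4. The difference from WT exceeded the gap between the RASSF9-/- arrays in 12 of the 24 genes, 11 of them higher, beside 23.6% of such genes higher by more than that gap. A gene can enter the group of 24 through the RASSF9-/- arrays alone, and this favours counting it as higher. Rad51ap1, Fanci, Palb2, Fancd2 and Eme1 entered that way, with a WT signal in the background. The shares over all genes of that kind come under the same rule.

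**Figure D1:**
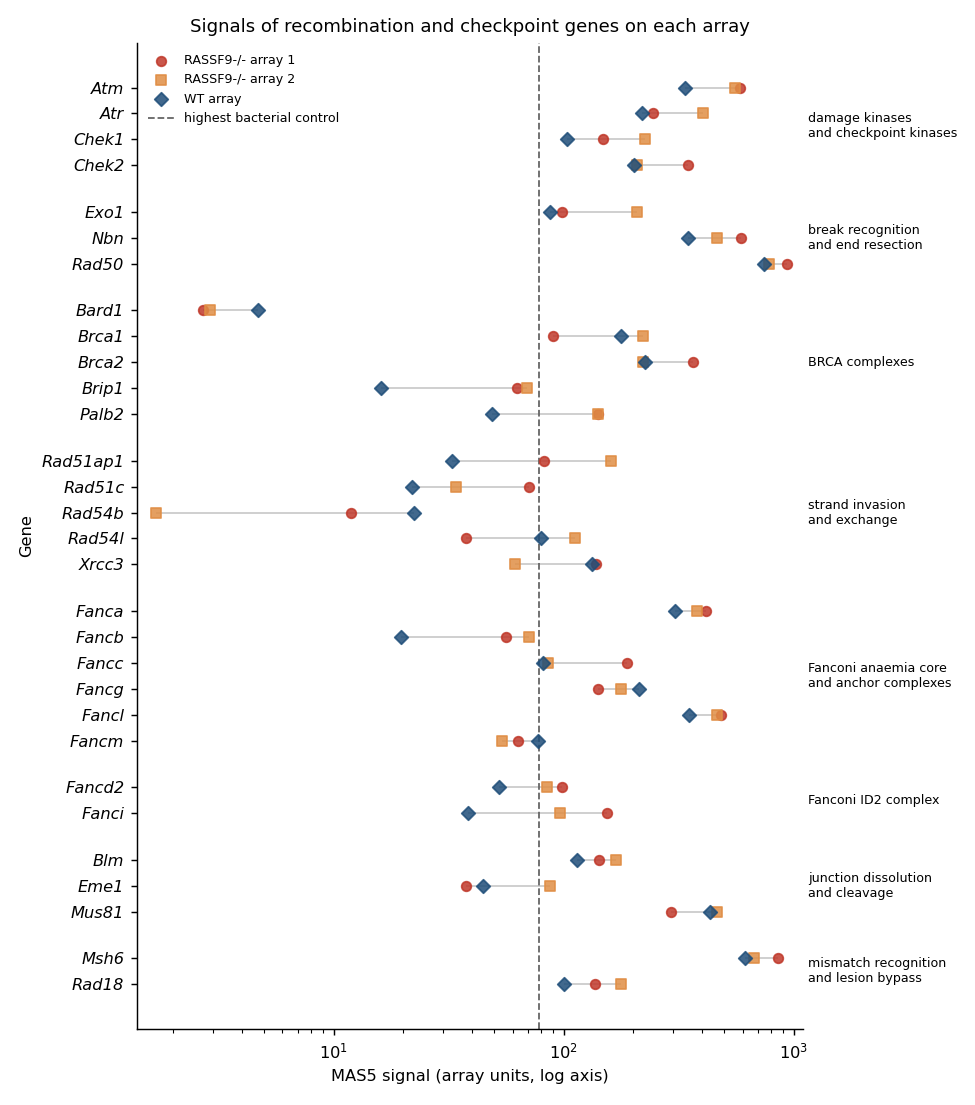
MAS5 signal in array units on a log axis for each of the 30 genes, grouped by role, each array drawn as its own marker, and the background level of 78.4 dashed. In 20 genes both RASSF9-/- markers lie to the right of the WT marker, and 6 genes lie wholly left of the dashed line.

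Of the 30 genes, 20 passed the filter on mean log2 signal and entered the limma fit over 11089 genes. The filter uses the mean log2 signal of all 3 arrays, so a gene that is bright on the RASSF9-/- arrays alone can pass it. Palb2 and Fanci passed it with a WT signal in the background. None of the 20 was called at an adjusted p under 0.05, where 9 of all genes tested were (0.0812%). The smallest adjusted p in the list was 0.894 from limma, for Palb2. At an unadjusted p under 0.05 1 gene, Palb2, was higher and none was lower, beside 3.11% of all genes tested that were higher and 2.43% that were lower. The fit has 1 residual degree of freedom, and a gene that misses its threshold is not shown to be unchanged.

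To show what the members have in common in sequence, promoter windows of assembly GRCm38.p6 were searched for letters that E2F factors are known to bind. Each window runs from 250 bases before to 50 bases after 1 annotated start of a gene, which need not be the outer end of its RefSeq span. The letters searched on both strands were TTCCCGC and its variant TTCGCGC, as well as TTGCCGC and its variant TTGGCGC, and the matches in members did not overlap one another. A window was found for 25 of the 30 genes, and 15 of these held a match. The other 5 are Exo1, Fancd2, Nbn, Rad50 and Rad54b. The same letters occur in 13.7% of the 17492 protein-coding genes with a window, counting a gene with several starts once. This form of the letters was chosen after the windows were seen, so the comparison is no test. A longer form with 1 more T in front, which always overlaps the shorter one, was present in 6 of the 25, beside 3.29% of protein-coding genes. The letters TTTGAA, a form of the CHR element of G2 and M phase genes, were in 2 of the 25 (Bard1 and Eme1), beside 18.5%. Of the 15 genes with E2F letters, 10 were higher on both RASSF9-/- arrays and 3 lower on both, and of the 10 without, 6 were higher on both and none lower on both. These counts disregard background. Bard1, Fancm, Brip1, Fancb and Rad51c, all with a match, were in the background on all 3 arrays by their brightest probe sets. Bard1 and Fancm are among the lower genes, and no gene without a match was in the background throughout. A match is a description of the sequence and no evidence of binding in these cells.

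The windows below are those of 3 genes with higher signals and a match, of Fancg, which had a match and lower signals, and of Palb2, which had the smallest p and no match. Capitals mark the E2F letters, and each window is written along the strand of its gene.
Atm, GRCm38.p6 chr9:53536622-53536921, strand -: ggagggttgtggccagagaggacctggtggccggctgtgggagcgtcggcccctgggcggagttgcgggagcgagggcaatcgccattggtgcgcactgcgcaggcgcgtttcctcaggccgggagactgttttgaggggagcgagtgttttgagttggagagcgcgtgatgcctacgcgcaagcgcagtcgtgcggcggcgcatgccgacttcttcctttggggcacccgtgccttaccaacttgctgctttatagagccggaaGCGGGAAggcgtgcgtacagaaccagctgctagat
Chek1, GRCm38.p6 chr9:36726609-36726908, strand -: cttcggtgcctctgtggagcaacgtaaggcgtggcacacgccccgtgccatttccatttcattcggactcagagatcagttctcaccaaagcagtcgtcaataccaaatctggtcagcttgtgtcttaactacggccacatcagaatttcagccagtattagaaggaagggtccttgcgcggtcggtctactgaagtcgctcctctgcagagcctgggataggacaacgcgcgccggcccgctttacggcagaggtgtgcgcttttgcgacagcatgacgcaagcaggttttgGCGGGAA
Rad51ap1, GRCm38.p6 chr6:126939538-126939837, strand -: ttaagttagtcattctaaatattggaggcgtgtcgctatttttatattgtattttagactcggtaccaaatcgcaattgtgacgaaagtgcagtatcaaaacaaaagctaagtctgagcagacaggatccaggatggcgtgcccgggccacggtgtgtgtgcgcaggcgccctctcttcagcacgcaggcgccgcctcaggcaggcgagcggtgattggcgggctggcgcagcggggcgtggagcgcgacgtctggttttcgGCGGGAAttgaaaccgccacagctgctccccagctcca
Fancg, GRCm38.p6 chr4:43010252-43010551, strand -: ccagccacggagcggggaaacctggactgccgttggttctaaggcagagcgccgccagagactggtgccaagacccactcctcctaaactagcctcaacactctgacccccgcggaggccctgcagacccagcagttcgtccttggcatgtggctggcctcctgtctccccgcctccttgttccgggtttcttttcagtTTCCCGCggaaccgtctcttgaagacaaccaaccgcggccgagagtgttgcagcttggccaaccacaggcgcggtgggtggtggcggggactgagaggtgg
Palb2, GRCm38.p6 chr7:122132897-122133196, strand -: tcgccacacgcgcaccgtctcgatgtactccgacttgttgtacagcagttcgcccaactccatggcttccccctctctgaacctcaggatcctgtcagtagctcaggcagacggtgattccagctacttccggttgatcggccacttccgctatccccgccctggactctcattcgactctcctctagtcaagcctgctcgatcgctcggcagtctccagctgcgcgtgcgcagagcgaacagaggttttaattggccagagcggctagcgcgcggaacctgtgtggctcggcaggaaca

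In Atm, Chek1 and Rad51ap1 the match reads GCGGGAA and begins at base 16, 44 and 13 after the annotated start, counting the base at that start as 1. In Fancg it reads TTCCCGC and begins 51 bases before the annotated start. The RefSeq spans of Atm, Rad51ap1, Fancg and Palb2 reach further upstream than the start used for their windows. For Fancg the span reaches base 43010567, beyond the whole window, so the match lies inside the span.

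The kinases that start the checkpoint and those that carry its signal all had higher signals on both RASSF9-/- arrays. Atm, whose product responds to double-strand breaks, had signals of 584 and 556 on RASSF9-/- arrays 1 and 2 and 337 on the WT array, and the arrays of the RASSF9-/- pair lay close together. Its log2 difference was 0.76 (standard error 0.45, adjusted p = 1.00 from limma). A second Atm probe set had the same direction, with 516 and 301 on RASSF9-/- arrays 1 and 2 and 250.5 on the WT array. Chek1 encodes CHK1, the effector kinase of ATR that guards replicating cells, and its signals were 148 and 226 on RASSF9-/- arrays 1 and 2 and 104 on the WT array. The Chek1 log2 difference was 0.82 (standard error 0.61, adjusted p = 1.00 from limma). Of its 4 other probe sets 1 was above background, with 99.9 and 152 on RASSF9-/- arrays 1 and 2 and 31.7 on the WT array, and it stood higher on both RASSF9-/- arrays too.

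Atr, the kinase that responds to single-stranded DNA at stalled forks, had signals of 244 and 402 on RASSF9-/- arrays 1 and 2 and 219 on the WT array, so array 1 lay near WT. Another Atr probe set disagreed, with 166 and 71.2 on RASSF9-/- arrays 1 and 2 and 152 on the WT array. Chek2 encodes CHK2, the effector kinase of ATM. Its signals were 346 and 208 on RASSF9-/- arrays 1 and 2 and 203 on the WT array, and here array 2 was the one near WT. The gap between the RASSF9-/- arrays was larger than the mean difference from WT for both Atr and Chek2.

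Genes that recognise and trim broken ends were also higher on both RASSF9-/- arrays by their brightest probe sets. Nbn encodes the NBS1 subunit of the MRN complex, which binds DNA ends and recruits ATM. It had signals of 591 and 462 on RASSF9-/- arrays 1 and 2 and 346 on the WT array, a log2 difference of 0.60 (standard error 0.47, adjusted p = 1.00 from limma). Rad50, the ATPase of the same complex, had 939 and 785 on RASSF9-/- arrays 1 and 2 and 743 on the WT array. This difference of 0.21 on the log2 scale was smaller than the gap between the RASSF9-/- arrays. Exo1, a nuclease that trims ends and also serves mismatch repair, had 98.6 and 209 on RASSF9-/- arrays 1 and 2 and 87.3 on the WT array, so only array 2 stood well apart from WT. A second Exo1 probe set went opposite ways, with 21.5 and 112.5 on RASSF9-/- arrays 1 and 2 and 28.4 on the WT array.

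The BRCA genes differed in direction among themselves. Palb2 encodes the protein that joins BRCA1 to BRCA2, and its signals were 141 and 141.5 on RASSF9-/- arrays 1 and 2 and 48.7 on the WT array. The RASSF9-/- arrays were nearly identical and both were above background, while the WT array was in it, which makes Palb2 at least 1.80-fold higher in RASSF9-/- cells (fitted log2 difference 1.54, standard error 0.63, adjusted p = 0.894 from limma). Brca1 had signals of 89.5 and 221 on RASSF9-/- arrays 1 and 2 and 178 on the WT array, with WT between them. Another Brca1 probe set gave 122 and 111 on RASSF9-/- arrays 1 and 2 and 96.4 on the WT array. Brca2, which is needed for the broken end to invade the sister, had 365 and 220.3 on RASSF9-/- arrays 1 and 2 and 225 on the WT array, so it was higher on array 1 and level with WT on array 2. Brip1, a helicase that binds BRCA1, had 62.8 and 69.4 on RASSF9-/- arrays 1 and 2 and 16.1 on the WT array, and Bard1, the partner that makes BRCA1 a ubiquitin ligase, had 2.7 and 2.9 against 4.7. For both of these genes all values were in the background.

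Among the factors of strand invasion and exchange, Rad51ap1 stood apart. RAD51AP1 helps DNA strands pair, and its transcript had signals of 82.4 and 161 on RASSF9-/- arrays 1 and 2 and 32.8 on the WT array. The geometric mean of the RASSF9-/- pair was at least 1.47-fold higher, but array 1 was barely above the background level of 78.4. Rad51ap1 did not pass the filter on mean log2 signal and was not tested in the main fit. A second probe set of Rad51ap1 that reached background gave 35.4 and 200 on RASSF9-/- arrays 1 and 2 and 24.4 on the WT array, and another gave 7.6 and 101 on those arrays against 28.6 on WT. Only array 2 was above background for these probe sets. Xrcc3, a recombination factor, had signals of 139 and 61.3 on RASSF9-/- arrays 1 and 2 and 133 on the WT array, and Rad54l, a motor protein that remodels the strand-exchange product, had 37.8 and 112 on RASSF9-/- arrays 1 and 2 and 79.9 on the WT array. Each had 1 RASSF9-/- array on either side of WT. In the background lay Rad51c, another recombination factor, with 70.9 and 34.1 on RASSF9-/- arrays 1 and 2 and 22.0 on the WT array, and Rad54b, a relative of Rad54l, with 11.9 and 1.7 against 22.4.

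**Figure D2:**
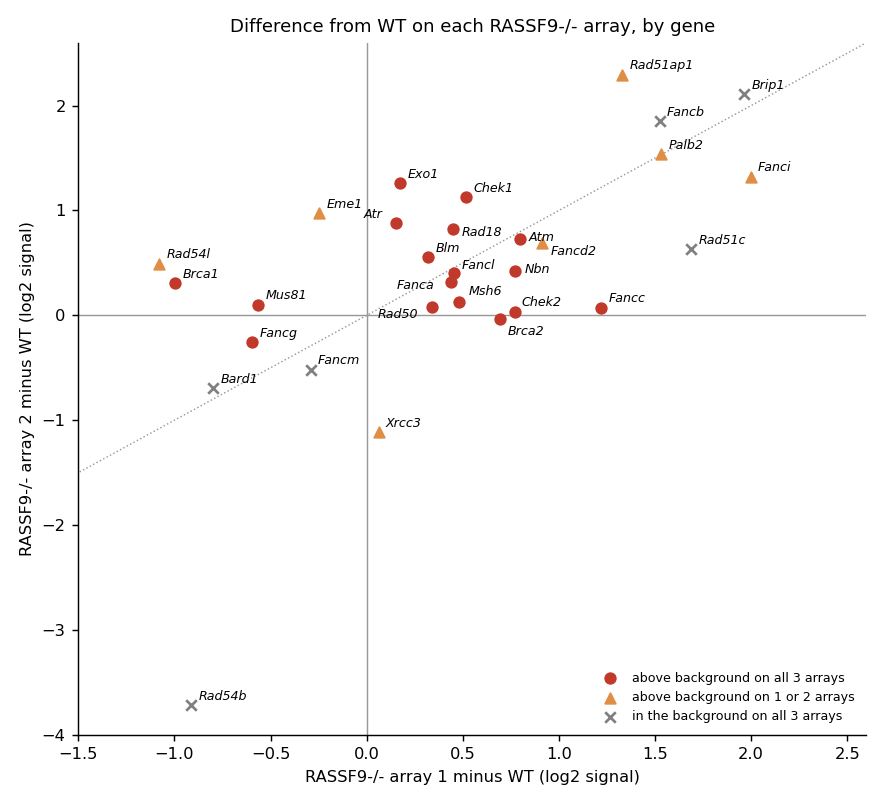
Log2 signal on RASSF9-/- array 1 minus WT (horizontal axis) and on RASSF9-/- array 2 minus WT (vertical axis) for the 30 genes, with the marker showing on how many arrays the gene was above background and a dotted line where both differences are equal. The upper right part holds 20 genes, and both axes share the WT array.

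Within the Fanconi anaemia pathway, which repairs crosslinked DNA, the ID2 pair had higher signals and the core complex was mixed. FANCI and FANCD2 form the clamp that the core complex tags with ubiquitin. Fanci had signals of 154 and 96.6 on RASSF9-/- arrays 1 and 2 and 38.6 on the WT array, at least 1.56-fold higher (fitted log2 difference 1.66, standard error 0.70, adjusted p = 0.911 from limma). Fancd2 had 98.5 and 84.8 on RASSF9-/- arrays 1 and 2 and 52.4 on the WT array, at least 1.17-fold higher. WT was in the background for both, and a second Fancd2 probe set ran the other way, with 67.5 and 65.3 on RASSF9-/- arrays 1 and 2 and 94.2 on the WT array.

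In the core complex, Fancl, its ubiquitin ligase, had signals of 482 and 465 on RASSF9-/- arrays 1 and 2 and 352 on the WT array. Fanca, the core gene most often mutated in Fanconi anaemia, had 414 and 381 on RASSF9-/- arrays 1 and 2 and 306 on the WT array. For Fancl and Fanca the RASSF9-/- arrays differed from each other by less than from WT, although a dimmer Fanca probe set had 96.1 and 85.3 on RASSF9-/- arrays 1 and 2 and 126 on the WT array. Fancc had 189 and 85.4 on RASSF9-/- arrays 1 and 2 and 81.1 on the WT array, so by this probe set only array 1 stood well apart from WT. Its other probe sets disagreed, since one was higher on both, with 136 and 101 on RASSF9-/- arrays 1 and 2 and 42.0 on the WT array, and one lower on both, with 114 and 92.3 against 120.1. Fancg was lower on both, with 141 and 178 on RASSF9-/- arrays 1 and 2 and 213 on the WT array, a log2 difference of -0.43 (standard error 0.57, adjusted p = 1.00 from limma), and its other probe set was lower on both as well. Fancb, another core subunit, was in the background with 56.4 and 70.6 on RASSF9-/- arrays 1 and 2 and 19.6 on the WT array. Fancm, the anchor that holds the core complex on DNA, was there too with 63.1 and 53.9 on RASSF9-/- arrays 1 and 2 and 77.2 on the WT array, while another of its probe sets gave 58.5 and 81.0 against 7.5.

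Of 3 genes that resolve joined chromosomes, 1 was higher on both RASSF9-/- arrays. Blm, a helicase that dissolves double Holliday junctions, had signals of 143 and 168 on RASSF9-/- arrays 1 and 2 and 114.5 on the WT array, a log2 difference of 0.44 (standard error 0.59, adjusted p = 1.00 from limma). Mus81 and Eme1 encode the subunits of a nuclease that cuts such junctions. Mus81 had 292 and 463 on RASSF9-/- arrays 1 and 2 and 431 on the WT array. Its other probe set was higher on both, with 468.5 and 391.7 on RASSF9-/- arrays 1 and 2 and 294 on the WT array. Eme1 exceeded background only on array 2, with 37.7 and 87.7 on RASSF9-/- arrays 1 and 2 and 44.7 on the WT array. Msh6, a subunit of the mismatch sensor, had 856 and 670.2 on RASSF9-/- arrays 1 and 2 and 613 on the WT array. Rad18, a ubiquitin ligase that starts the bypass of lesions at the fork, had 137 and 177 on RASSF9-/- arrays 1 and 2 and 100.1 on the WT array, but of its 3 other probe sets only 1 was higher on both arrays.

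The choice of probe set mattered for this list. The 30 genes have 67 probe sets, and 20 genes have several. In 12 genes at least 2 probe sets were above background on 1 array or more, and these agreed on 1 direction on both arrays in 3 genes (Atm and Chek1 higher, Fancg lower) and not in the other 9. The same share among all genes was not counted, so the disagreement is not shown to be particular to these genes. With the mean of all probe sets of a gene in place of the brightest, 16 of the 30 genes were higher on both RASSF9-/- arrays.

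**Figure D3:**
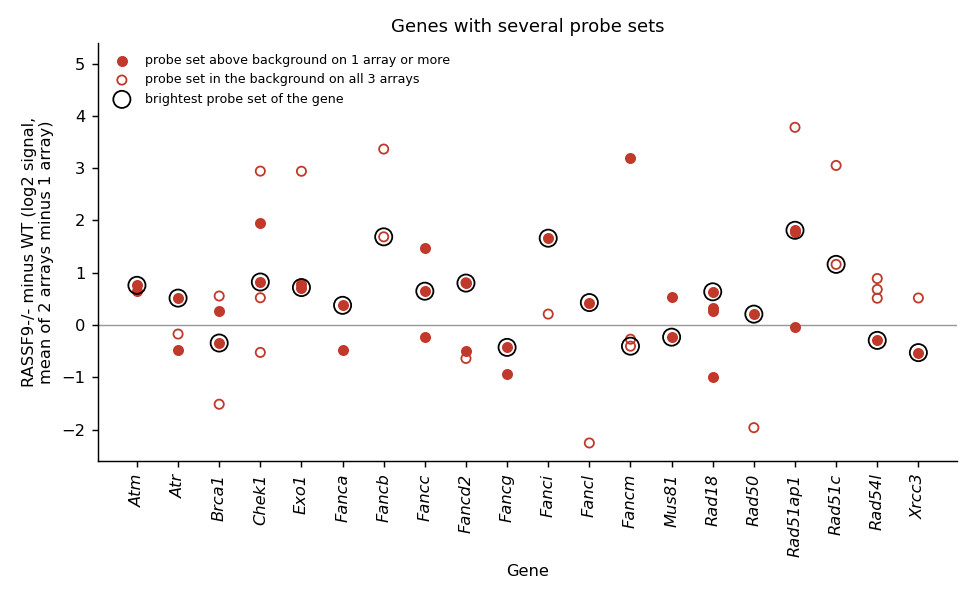
Log2 signal of RASSF9-/- (mean of 2 arrays) minus WT (1 array) for every probe set of the 20 genes with several, filled where the probe set was above background on 1 array or more and ringed where it is the brightest of its gene. Filled markers lie on both sides of 0 for Atr, Brca1, Fanca, Fancc, Fancd2, Mus81, Rad18 and Rad51ap1.

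Genes that work beside the members gave smaller differences as groups. Of 36 other recombination and Fanconi genes, 35 were measured. Higher on both RASSF9-/- arrays were 17 and lower on both 7, and the median log2 difference was 0.15. Dna2, a nuclease and helicase of end resection, had signals of 183 and 235 on RASSF9-/- arrays 1 and 2 and 54.0 on the WT array, at least 2.64-fold higher (adjusted p = 0.686 from limma). Ercc1, a subunit of the nuclease that cuts beside crosslinks, had 7323 and 9872 on RASSF9-/- arrays 1 and 2 and 2993 on the WT array, a log2 difference of 1.51 (standard error 0.35, adjusted p = 0.384 from limma). Rpa2, part of the protein that coats single strands, had a log2 difference of 0.66. None of the 35 was called.

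Among 20 other checkpoint and damage signalling genes, 10 were higher on both RASSF9-/- arrays and 4 lower on both, with a median of 0.27. The largest belonged to the complex that links the replication fork to CHK1. Clspn, the adaptor through which ATR reaches CHK1, had signals of 153 and 301 on RASSF9-/- arrays 1 and 2 and 54.8 on the WT array, at least 2.73-fold higher (adjusted p = 0.770 from limma). Timeless had 140 and 133 on RASSF9-/- arrays 1 and 2 and 46.0 on the WT array, at least 1.74-fold higher, and its partner Tipin had 624.5 and 1188 on RASSF9-/- arrays 1 and 2 and 377 on the WT array, a log2 difference of 1.19 (adjusted p = 0.934 from limma). None of the 20 was called.

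The lists drawn up for repair routes that need no sister chromosome had medians closer to WT than the 30 genes did. These medians depend on how genes were assigned to lists. Ercc1, at 1.51, was counted with the other recombination and Fanconi genes and not with nucleotide excision repair. The list for non-homologous end joining also counts Parp1, Xrcc1 (-0.42) and Lig3 (-0.20), which are not confined to that route. No median was taken without them. For non-homologous end joining 10 of 11 genes were measured, with 5 higher on both RASSF9-/- arrays, 4 lower on both and a median log2 difference of 0.07. Parp1, a sensor of nicks and breaks, was at 0.66, Prkdc, the DNA-dependent kinase, at 0.59 and Paxx at -0.33. In nucleotide excision repair 1 of 10 genes was higher on both and 4 were lower on both, with a median of -0.12. Ercc5 was at -0.56, Ddb1 at -0.13 and Ercc3 at -0.11. The 4 other mismatch repair genes measured split evenly, with Msh3 at 0.45, Pms1 at -0.78 and Mlh3 at -0.25. Of 21 genes that p53 induces after damage, 5 were higher on both, 8 were lower on both and the median was -0.12, with Plk3 at 1.32, Mdm2 at 0.91 and Fas at -0.71. No gene of these lists was called, and the 6 reference genes measured had a median of 0.15, with Ywhaz at 0.20, Sdha at 0.22 and Tbp at -0.33.

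Genes of replication licensing and markers of dividing cells also had higher signals in RASSF9-/- cells, by more than the recombination genes. In the licensing list 13 of 16 genes were higher on both RASSF9-/- arrays and 9 at least 2-fold, with a median log2 difference of 1.19. Cdc6, which loads the MCM helicase, was at least 2.40-fold higher, and the helicase subunits Mcm5 and Mcm3 were at 2.93 and 2.05. Of 14 proliferation markers measured, 13 were higher on both and the median was 2.03, with signals summed over the list of 13144 and 20587 on RASSF9-/- arrays 1 and 2 and 8988 on the WT array. For Mki67 the bound was 4.30-fold higher, for Cdk1, the kinase that drives mitosis, 9.20-fold and for Bub1, a spindle checkpoint kinase, 3.02-fold, and none of either list was called. The median of the 30 recombination and checkpoint genes, 0.43, was lower than both of these medians. Of the 14 proliferation markers, 9 had a WT signal in the background. With background values raised, the medians were 1.54 for proliferation markers, 1.19 for licensing and 0.32 for the 30 genes. The part of proliferation in the difference of the 30 genes was not tested, nor was the difference between lists.

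**Figure D4:**
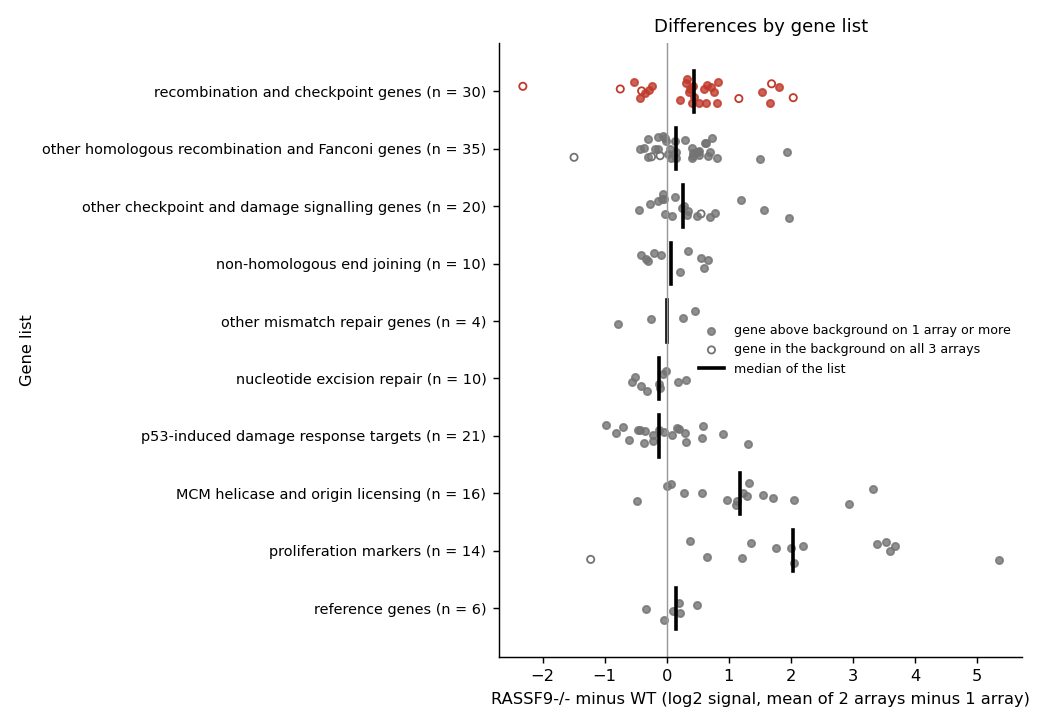
Log2 signal of RASSF9-/- (mean of 2 arrays) minus WT (1 array) for each gene of 10 lists, with 1 dot per gene, open where the gene was in the background on all 3 arrays, and a black bar at the list's median. Background values were not raised here. Medians are 0.43 for the recombination and checkpoint genes, 1.19 for licensing and 2.03 for proliferation markers, and lie between -0.12 and 0.27 for the other 7 lists.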

How the data were processed

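Signals of 3 Affymetrix Mouse Genome 430 2.0 arrays were analysed, 2 of RASSF9-/- and 1 of WT keratinocytes, grouped by their titles. The deposited values are MAS5 signal intensities on a linear scale, which the authors scaled to a trimmed mean of 500.003 on each array (2% removed at each end). The MAS5 version is not given in the sources used here, the table holds no detection calls, and no GeneSpring values entered the analysis.

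Log2 values were taken without further normalization or pseudocount. Of 45037 probe sets that are not controls, the platform annotation gives 34945 exactly 1 symbol, which represent 18193 genes by their brightest probe set. Counts of direction and medians used every such gene. The difference of RASSF9-/- from WT was fitted in limma 3.58.1 under R 4.3.3 (lmFit, then eBayes with a trend on intensity) and tested two-sided with Benjamini-Hochberg adjustment, on the 11089 genes whose mean log2 signal over the arrays reached that of the 50th percentile, taken over the 45037 probe sets (a geometric mean signal of 82.7). The spread comes from the RASSF9-/- pair alone, with 1 residual and 5.31 prior degrees of freedom, and measures the difference between those samples. The number of arrays limits the precision. Where WT was in the background, lower values were set to 78.4 and the fold of the RASSF9-/- geometric mean over it is a lower bound. The procedure was tested on simulated data with the same spread in both groups, no difference in date or culture time, and added changes larger than those of the members. That simulation therefore does not address the dates, the culture times or differences as small as those of the members. A term for array date would use up the residual degree of freedom and was left out.

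The members and lists were chosen with earlier results of these data known. All members with a probe set, Rassf9 and up to 3 genes of each other list are named, chosen by the smaller of their changes on the RASSF9-/- arrays in 1 direction. Krt14, Krt5, Trp63, Ptprc, Pecam1, Kdr and Csf1r were named as markers after their values were seen. The shorter E2F letters were chosen after the windows were seen. Alternatives were division by the array median, quantile normalization, no filter, a pseudocount of 32, averaged probe sets, no intensity trend, raised background, the methods' t-test, other fold limits, a filter at the 75th percentile, and leaving out each RASSF9-/- array.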

Additional observations from a re-analysis of the deposited data

How the results depend on the processing

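No recombination or checkpoint gene was called under any setting that uses an adjusted p. With the methods' t-test at an unadjusted p under 0.05, 493 of all genes and 1 of these were, and after Benjamini-Hochberg adjustment 4 of all genes and 0 of these. Counts of all genes called by limma were 9 in the main fit, 0 with quantile normalization, without the intensity trend or with background values raised, 5 with a filter at the 75th percentile and 3 with a pseudocount of 32. The signal ratio passed 2-fold on both RASSF9-/- arrays for 5 members, including 2 in the background on all 3 arrays, and this count was 0 with background values raised, 0 of 4 with a filter at the 75th percentile, 1 with a pseudocount of 32, 8 at 1.5-fold and 1 at 3-fold. It was 7 without either RASSF9-/- array. The count higher on both, 20, was 16 to 21 under settings that keep all 30 genes, and 4 of 4 with the filter at the 75th percentile. These alternatives to that count were chosen after seeing the data. Without 1 RASSF9-/- array, 22 to 24 were higher on the other. The median log2 difference of 0.43 was 0.45 after division by the array median, 0.48 with quantile normalization, 0.45 with the filter at the 75th percentile, 0.38 with a pseudocount of 32, 0.38 with the mean of probe sets, 0.32 with background values raised, and 0.45 to 0.46 with 1 RASSF9-/- array left out.

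Of the 24 genes above background by their brightest probe set, 14 kept their direction throughout and 10 did not. With the mean of probe sets the log2 difference was -0.046 for Atr, -0.051 for Fanca, -0.91 for Fancl, -0.88 for Rad50, 0.16 for Mus81 and 0.45 for Rad54l. For Fancl and Rad50 this mean takes in a second probe set that was in the background on all 3 arrays. It had 10.6 and 3.6 on RASSF9-/- arrays 1 and 2 and 29.5 on the WT array for Fancl. For Rad50 it had 10.3 and 5.6 on RASSF9-/- arrays 1 and 2 and 29.6 on the WT array. With background values raised, Rad54l was at 0.23. With 1 RASSF9-/- array left out, Brca1 ranged from -0.995 to 0.31, Brca2 from -0.033 to 0.70, Eme1 from -0.25 to 0.97, Mus81 from -0.57 to 0.10, Rad54l from -1.08 to 0.49 and Xrcc3 from -1.12 to 0.062. The cause of the other changes in direction was not tested. No paired analysis was possible because there is 1 WT sample, and leaving out a RASSF9-/- array leaves no residual degree of freedom, so those values have no test. Signals near background limit what can be said of the dim genes.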
